A study of Mus musculus with 17 samples.

Results

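Cadherin-based adhesion was examined through 8 genes: the alpha-catenins Ctnna1, Ctnna2 and Ctnna3, beta-catenin (Ctnnb1) and its relative plakoglobin (Jup), the p120 family members Ctnnd1 and Ctnnd2, and N-cadherin (Cdh2). They were taken by symbol from a table of 55453 genes, and all 8 were found. The set was chosen by the measured values of Ctnna2, which the study lists among genes that were higher in both Hnrnph2-knockin lines and not in knockout mice. Its values in mutants and their controls, in all 3 lines, are therefore given as a description with no test. The other 7 genes were added as partners of Ctnna2.

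The RNA was total RNA of bulk cortex, 1 library for each of 17 mice (C57BL/6J males) that fall into 6 groups. Hemizygous Hnrnph2 knockout (KO) mice and hemizygous R206W mice, which carry a substitution in hnRNPH2, were sampled at 8 weeks, with 3 mice each. Hemizygous P209L mice were sampled at 3 weeks, also with 3 mice. Each line had its own wild-type littermates, with 3 KO controls, 3 R206W controls and 2 P209L controls. Per the study, the KO allele carries a frameshift in Hnrnph2 and the knockin alleles are at the endogenous locus. hnRNPH2 is an X-linked RNA-binding protein that recognizes runs of G and acts in splicing. Only the P209L line was sampled at 3 weeks, so age and line cannot be told apart in any comparison of 3-week with 8-week mice. Values were in TPM, the share of a transcript among all transcripts of a sample, corrected for transcript length and scaled to the same total in every mouse. The depth per sample is unknown, and precision was judged from the spread between mice.

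Classical cadherins join neighboring cells through their extracellular domains and bind catenins inside the cell. Beta-catenin or plakoglobin binds the distal cadherin tail, alpha-catenin links that complex to actin, and p120 catenins bind closer to the membrane and hold cadherin at the surface. In neurons N-cadherin and these catenins gather at synapses and dendritic spines, alpha-catenin 2 also restrains actin branching by the Arp2/3 complex, and beta-catenin that is not bound to cadherin carries Wnt signals to the nucleus.

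The genes lie on 7 chromosomes of GRCm38, and several are among the long neuronal genes. Ctnna2 (ENSMUSG00000063063.12) spans 1098 kb of chromosome 6, from 76881637 to 77979699 on the minus strand. Ctnna3 covers 1574 kb of chromosome 10 and Ctnnd2 857 kb of chromosome 15, whereas Ctnnb1 and Jup take up 31.3 kb of chromosome 9 and 28.8 kb of chromosome 11. Upstream sequence is shown for the 4 genes on which the results turn, namely Ctnna2, which was higher in both knockin groups, Ctnnb1 and Jup, which differed between ages in opposite directions, and Ctnnd2, the p120 relative with the lowest adjusted p between ages. Each stretch is the 200 bases that end 50 bases before a RefSeq start (GRCm38.p6), lies outside annotated exons and reads 5' to 3' on the strand of the gene. Capitals mark GC boxes (GGGCGG or CCGCCC) and CCAAT boxes (CCAAT or ATTGG). The Ctnna2 stretch is chr6:77979718-77979917, that of Ctnnb1 chr9:120933150-120933349, that of Jup chr11:100397841-100398040 and that of Ctnnd2 chr15:30172284-30172483.
Ctnna2: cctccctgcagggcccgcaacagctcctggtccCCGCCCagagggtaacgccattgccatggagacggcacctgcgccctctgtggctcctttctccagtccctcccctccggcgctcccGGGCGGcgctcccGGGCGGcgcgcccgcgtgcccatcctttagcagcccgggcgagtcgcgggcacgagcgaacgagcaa
Ctnnb1: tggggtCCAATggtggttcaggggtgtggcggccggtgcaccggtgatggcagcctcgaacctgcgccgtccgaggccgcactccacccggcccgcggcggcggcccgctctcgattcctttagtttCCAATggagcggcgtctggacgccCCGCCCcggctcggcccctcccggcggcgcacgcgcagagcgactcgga
Jup: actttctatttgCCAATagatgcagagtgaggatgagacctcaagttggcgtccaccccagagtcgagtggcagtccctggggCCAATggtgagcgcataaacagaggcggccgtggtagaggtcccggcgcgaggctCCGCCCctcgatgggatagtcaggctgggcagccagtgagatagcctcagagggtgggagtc
Ctnnd2: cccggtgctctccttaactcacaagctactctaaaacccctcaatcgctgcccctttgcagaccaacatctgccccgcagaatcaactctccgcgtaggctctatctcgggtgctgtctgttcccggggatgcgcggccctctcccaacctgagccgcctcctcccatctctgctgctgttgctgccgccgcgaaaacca
The Ctnna2 stretch held 3 GC boxes and 0 CCAAT boxes, and those of Ctnnb1 and Jup each held 1 GC box and 2 CCAAT boxes. Another RefSeq start of Ctnnb1 has a stretch that is not shown, since 128 of its 200 bases lie in annotated exons. It held 2 GC boxes and 0 CCAAT boxes. Neither motif was found in the Ctnnd2 stretch. Of the 32851 RefSeq entries with a stretch of this length, 24.6% held a GC box and 28.4% a CCAAT box. None of the 4 stretches held the TCF/LEF letters CTTTGA or CTTTGT, or their complements TCAAAG and ACAAAG, which 23.4% of entries held. The observed-to-expected ratio of CpG was 0.887 for Ctnna2, 1.04 for Ctnnb1, 0.802 for Ctnnd2 and 0.563 for Jup, against a median of 0.357 over all entries. The first 3 of these ratios were above those of at least 83.1% of entries, and that of Jup was above 66.0%. In the longest coding transcript, runs of 3 or more G occurred at 9.85 per kb in Ctnna2, more often than in 28.4% of the 13400 coding genes tested, and at 8.42 to 13.8 per kb across the 8 genes, against a median of 12.4.

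Cortex held all but one of these genes at clear levels, in a steep order. Over the 17 mice the mean was 387 TPM for Ctnnb1, which was above the mean of 98.3% of the 16265 genes that averaged 1 TPM or more, the limit for testing. Ctnnd2, or delta-catenin, a neuronal p120 relative found at dendritic spines, averaged 91.7 TPM, and Ctnna2 79.8 TPM. Ctnna1, the broadly expressed alpha-catenin, had 37.5 TPM, Cdh2 34.8 TPM and Ctnnd1, or p120-catenin, 34.1 TPM. Jup, which also serves desmosomes, had 15.9 TPM. Ctnna3, an alpha-catenin known from heart and testis, lay between 0.28 and 1.01 TPM in every mouse. It was the only member below the filter, so 7 of the 8 genes entered the fit.

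Some neighbors in this order changed places between mice. Ctnnb1 was above Ctnnd2, and Jup above Ctnna3, in 17 of 17 mice. Ctnna2 exceeded Ctnna1 in all 17 mice with no overlap of their ranges. Ctnnd2 was above Ctnna2 in 12 of 17 mice, which were the 12 mice at 8 weeks, and Ctnna2 was above Ctnnd2 in the 5 mice at 3 weeks. The order of Ctnna1, Cdh2 and Ctnnd1 also went with age. Ctnna1 was above Cdh2 in 10 of 12 mice at 8 weeks and in 1 of 5 at 3 weeks. Cdh2 was above Ctnnd1 in 3 of 12 mice at 8 weeks and in 5 of 5 at 3 weeks.

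**Figure D1:**
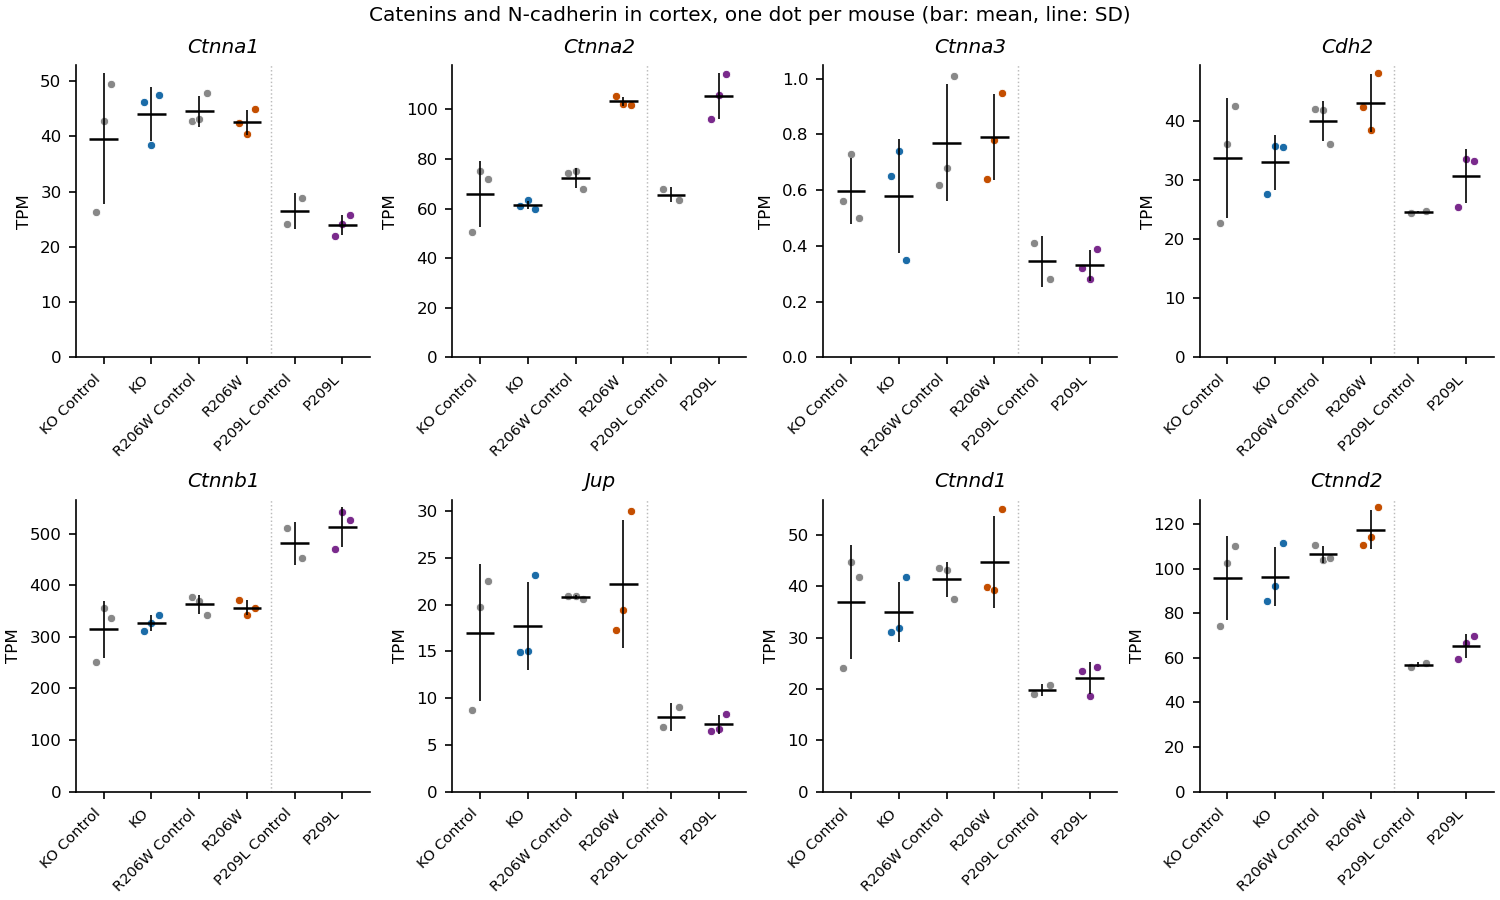
TPM (vertical axis, from 0) of the 8 genes in each of the 6 groups (horizontal axis), with a dot for each mouse, a bar at the group mean and a line of 1 SD on either side, and a dotted line between 8-week and 3-week groups. Ctnna2 in R206W mice (101.9 to 105.4 TPM) and P209L mice (96.1 to 114.5 TPM) sits above every control, while Ctnna1, Jup, Ctnnd1 and Ctnnd2 sit lower and Ctnnb1 higher in 3-week than in 8-week groups.

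A pair of libraries stood apart from the rest, and several results that rest on them are given with and without them. KO control 1 had 20.1% of its TPM in mitochondrial genes, against 10.7% to 15.4% in the other 16 mice, and the lowest summed TPM of the 8 genes, 459 against 578 to 803. P209L control 2 had a summed 1770 TPM of 6 ependymal and choroid plexus markers, against 5.26 to 42.7 in the other 16 mice. Neuronal markers (6 of 6 detected) summed to between 2531 and 5291 TPM, as fits the labeled tissue. Hnrnph2 itself served as a check of the labels. It had 21.3, 23.5 and 24.4 TPM in the 3 KO mice and 80.5, 140 and 145 TPM in their controls, a log2 difference of -2.30 (SE 0.170, limma, adjusted p = 8.64e-06).

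Ctnna2, which encodes neuronal alpha-catenin, was higher in both knockin groups than in their littermates. The 3 R206W mice had 101.9, 102.3 and 105.4 TPM and their controls 67.8, 74.5 and 75.1 TPM. Every R206W mouse was thus above every one of its controls, and the ratio of means was 1.42. The 3 P209L mice had 96.1, 105.7 and 114.5 TPM and their 2 controls 63.6 and 67.7 TPM. These groups did not overlap either, with a ratio of 1.61. The log2 differences of TPM + 1 were 0.51 (SE 0.126, 95% interval 0.24 to 0.77) in R206W and 0.67 (SE 0.141, 95% interval 0.37 to 0.97) in P209L cortex. They stayed between 0.46 and 0.53 in R206W and between 0.61 and 0.74 in P209L when any mouse of the pair of groups was left out. As background, 16.2% of all genes tested in R206W and 24.9% in P209L had groups that did not overlap, so the lack of overlap is not particular to Ctnna2. Ctnna2 was chosen for this pattern, and nothing is read from it here beyond its size.

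In KO mice Ctnna2 took other values. The 3 KO mice had 59.9, 61.0 and 63.4 TPM and their controls 50.6, 72.0 and 75.3 TPM. KO mice lay between the lowest control, KO control 1, and the others. The log2 difference was -0.08 (SE 0.126, 95% interval -0.35 to 0.19), and -0.26 without KO control 1, both as descriptions. The KO effect minus the R206W effect was -0.59 on the log2 scale (95% interval -0.97 to -0.21), again as a description.

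The controls of the 3 lines, in which no mutation differs, are the baseline on which Ctnna2 was chosen, so their levels are also a description. KO, R206W and P209L controls averaged 66.0 ± 13.4 (SD, n = 3), 72.5 ± 4.02 (SD, n = 3) and 65.7 ± 2.90 TPM (SD, n = 2). The log2 difference between R206W and KO controls was 0.15, and that between 3-week and 8-week controls was -0.06 (95% interval -0.33 to 0.20). The latter changed sign, to 0.05, with median-of-ratios size factors and with quantile normalization.

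Ctnna1, the other alpha-catenin at a clear level, had no such pattern. Its 3 R206W mice had 40.5, 42.4 and 44.9 TPM and their controls 42.8, 43.1 and 47.8 TPM. The P209L mice had 22.0, 24.2 and 25.7 TPM and their controls 24.1 and 28.9 TPM. Both pairs of groups overlapped, and both log2 differences were below 0, at -0.06 (95% interval -0.43 to 0.30) and -0.14 (95% interval -0.55 to 0.27). Neither passed the test (limma, adjusted p = 1 and 0.958). In KO mice Ctnna1 had 38.5, 46.3 and 47.5 TPM against 26.4, 42.8 and 49.4 TPM in controls, a log2 difference of 0.19 (adjusted p = 0.999) that became -0.07 without KO control 1.

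The makeup of the alpha-catenin pool shows the same data within each mouse, where the scaling of the sample cancels. Ctnna2 made up 68.96%, 71.0% and 71.3% of the summed TPM of Ctnna1, Ctnna2 and Ctnna3 in R206W mice, against 58.1%, 63.2% and 63.2% in their controls. It made up 81.2%, 81.2% and 81.4% in P209L mice, against 68.6% and 73.4% in their controls. Each knockin group was above its own controls, by 8.93 and 10.3 percentage points in the mean. In KO mice the share was 55.6%, 56.5% and 61.7%, against 59.1%, 63.4% and 65.3%, which overlap. No test was made of these shares, since Ctnna2 enters them. Ctnna3 gave less than 1.1 TPM to any pool.

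**Figure D2:**
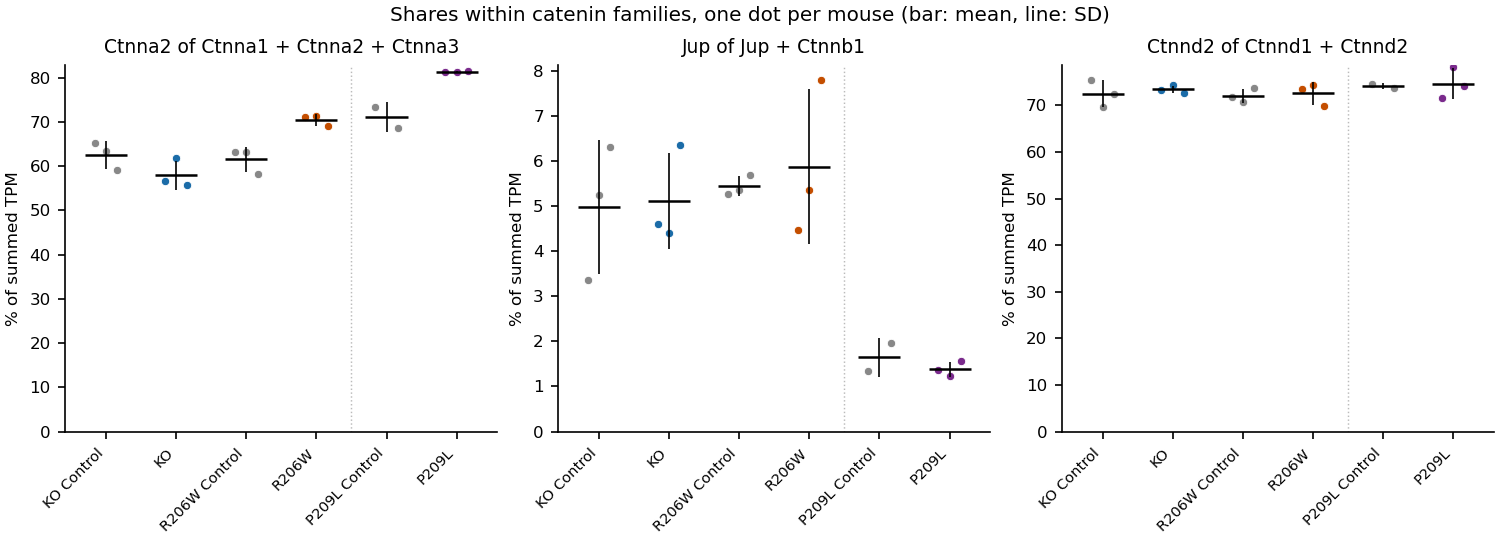
Percent of the summed TPM (vertical axis, from 0) taken by Ctnna2 among the 3 alpha-catenins, by Jup among Jup and Ctnnb1, and by Ctnnd2 among Ctnnd1 and Ctnnd2, for each mouse (dots) in the 6 groups, with the group mean (bar) and SD (line). The Ctnna2 share is 70.4% in R206W against 61.5% in its controls and 81.3% in P209L against 71.0%, the Jup share is under 2% in every 3-week mouse, and the Ctnnd2 share is 69.6% to 78.2% in all 17 mice.

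None of the partners of Ctnna2 passed the test in any line. Of the 6 other genes tested, 0 passed in KO, 0 in R206W and 0 in P209L mice by limma, and 0 had an unadjusted p under 0.05 in any of the 3. Among all 16265 genes tested, 0.00615%, 0.0369% and 0.0984% passed in the 3 comparisons, so few genes of any kind were called. The lowest adjusted p among the partners was 0.999 in KO, 1 in R206W and 0.841 in P209L. The KO effect minus the R206W effect passed for 0 of these 6 genes (0 at an unadjusted p under 0.05), against 0.0307% of all genes.

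Cdh2, the N-cadherin to which the catenins bind, had its highest log2 difference in P209L mice. They had 25.5, 33.2 and 33.7 TPM against 24.5 and 24.8 TPM in controls, a log2 difference of 0.30 (SE 0.209, 95% interval -0.14 to 0.74, adjusted p = 0.841). All 3 mice were above both controls, 1 of them by little. In R206W mice Cdh2 had 38.5, 42.4 and 48.3 TPM against 36.2, 41.9 and 42.1 TPM, which overlap, with a log2 difference of 0.10 (adjusted p = 1). KO mice and their controls overlapped as well, at 33.1 ± 4.69 and 33.9 ± 10.2 TPM (SD, n = 3 each), with a log2 difference of 0.00 (95% interval -0.39 to 0.40).

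Ctnnd2 was the partner whose groups did not overlap in either knockin line. As background, 16.2% of all genes tested in R206W and 24.9% in P209L lacked overlap, and Cdh2 lacked it in P209L too. R206W mice had 110.8, 114.2 and 127.5 TPM and controls 104.0, 104.7 and 110.6 TPM, so that the lowest R206W mouse lay just above the highest control. P209L mice had 59.5, 66.7 and 69.8 TPM and controls 56.1 and 57.7 TPM. The log2 differences of 0.14 (95% interval -0.15 to 0.43) and 0.19 (95% interval -0.13 to 0.52) did not pass the test (adjusted p = 1 and 0.872). KO mice had 85.7, 92.2 and 111.3 TPM and their controls 74.4, 102.7 and 110.2 TPM, and in KO no partner had groups without overlap, against 6.25% of all genes.

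Ctnnd1, which stabilizes cadherin at the surface, had 39.2, 40.0 and 55.1 TPM in R206W mice and 37.5, 43.2 and 43.5 TPM in controls. In P209L mice it had 18.6, 23.6 and 24.4 TPM against 19.0 and 20.7 TPM, and in KO mice 31.2, 32.0 and 41.7 TPM against 24.2, 41.8 and 44.8 TPM. All 3 pairs of groups overlapped. The log2 differences were 0.10, 0.15 and -0.04, none past the threshold. With samples weighted by quality, which gave KO control 1 a weight of 0.0818, Ctnnd1 and Ctnnd2 passed in KO, at -0.45 and -0.22, in a fit that called 13.3% of all genes. For Ctnnd2 this turned the sign of a log2 difference of 0.02.

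Ctnnb1 and Jup share the binding site on cadherin, and neither passed in any line. Ctnnb1 averaged 356 ± 14.1 TPM in R206W mice and 363 ± 19.0 TPM in their controls, 326 ± 16.1 and 314 ± 55.1 TPM in KO mice and theirs (SD, n = 3 each), and 513 ± 38.3 (SD, n = 3) against 481 ± 41.7 TPM (SD, n = 2) in P209L. The 3 intervals of the log2 difference ran from -0.28 to 0.37. Jup was more variable. It had 17.3, 19.4 and 30.1 TPM in R206W mice against 20.6, 20.9 and 20.97 TPM, and its wider intervals in the 3 lines ran from -0.79 to 0.71.

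**Figure D3:**
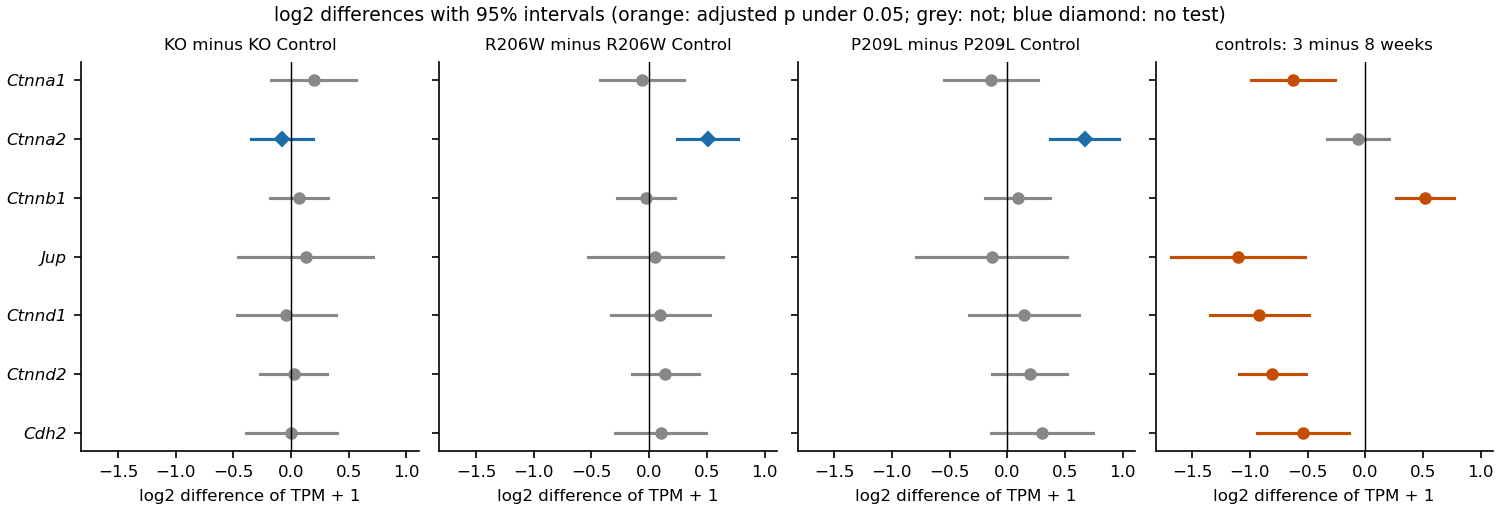
Difference in log2(TPM + 1) (horizontal axis) of the 7 genes above the filter, in KO, R206W and P209L mice against their own controls and in 3-week against 8-week controls, with 95% intervals from limma (lines). The 6 partners cross 0 in all 3 mutant panels, the untested Ctnna2 (diamonds) lies at -0.08, 0.51 and 0.67, and in the controls Ctnna1, Jup, Ctnnd1, Ctnnd2 and Cdh2 lie below 0 and Ctnnb1 above it.

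The same genes differed widely between 3-week and 8-week cortex. Of the 6 partners tested, 5 were lower and 1 was higher in the P209L controls than in the 8-week controls. Over all genes tested, 24.8% were lower and 11.3% higher in this comparison, so differences were common in the cortex as a whole. The median log2 difference of all genes was -0.12, and the 5 lower genes lay from -0.54 to -1.10. Groups did not overlap for Ctnnb1, Ctnnd1 and Ctnnd2, 3 of the 6 partners, against 38.2% of all genes. In bulk tissue, fewer cells of a type and less RNA per cell cannot be told apart.

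Ctnnd2 was the gene with the lowest adjusted p. The P209L controls had 56.1 and 57.7 TPM, below all 6 controls at 8 weeks, which ran from 74.4 to 110.6 TPM with a mean of 101 ± 13.5 (SD, n = 6). The log2 difference was -0.81 (SE 0.137, adjusted p = 5.03e-04 by limma). Ctnnd1 was lower as well, with 19.0 and 20.7 TPM against 24.2 to 44.8 TPM and no overlap, a log2 difference of -0.92 (SE 0.201, adjusted p = 0.00284). These were the 2 genes that passed in each of the 18 fits made of this comparison.

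Jup had the largest difference among the 8 genes. It had 6.96 and 9.02 TPM in P209L controls and a mean of 18.9 ± 5.06 TPM (SD, n = 6) in 8-week controls, 42.2% of the older level (log2 difference -1.10, SE 0.275, adjusted p = 0.00631). The groups overlapped through KO control 1 alone, at 8.76 TPM, and the other 5 older controls had 19.7 to 22.6 TPM. Ctnna1 had 24.1 and 28.9 TPM against 26.4 to 49.4 TPM (log2 difference -0.63, SE 0.172, adjusted p = 0.0109), also with an overlap through KO control 1. Cdh2 had 24.5 and 24.8 TPM against 22.7 to 42.7 TPM (log2 difference -0.54, SE 0.187, adjusted p = 0.0346). Its call was the least stable of the 6, being made in 10 of 18 fits, with an adjusted p of up to 0.163.

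Ctnnb1 went the other way. Its 2 P209L controls had 452 and 511 TPM, above all 6 controls at 8 weeks, which ran from 252 to 378 TPM. The log2 difference was 0.52 (SE 0.119, adjusted p = 0.00391), a ratio of means of 1.42. With Jup lower and Ctnnb1 higher, Jup made up 1.35% and 1.96% of their summed TPM in P209L controls against 3.36% to 6.31% in 8-week controls. That gap of -3.56 percentage points had an exact two-sided permutation p of 0.0714, the smallest that 2 mice against 6 allow (0.333 adjusted over 14 share tests). The Ctnna2 share of the alpha-catenins was 8.96 points higher at 3 weeks, as a description, though tests of it between controls count among the 14. The Ctnnd2 share of the p120 pair, in contrast, was 74.2% against 72.3% (exact permutation p = 0.357, adjusted p = 0.969).

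Ctnna3 stayed low at both ages. In the younger controls it had 0.28 and 0.41 TPM and in the older ones 0.50 to 1.01 TPM, with no overlap, which 38.2% of all genes tested also lacked. The mutants did overlap, with 0.28 to 0.39 TPM in P209L mice and as little as 0.35 TPM in KO mice. Ctnna3 was below the filter, and in the fit with no filter its log2 difference was -0.32 in the controls (adjusted p = 0.0618) and -0.33 between 3-week and 8-week mutants (adjusted p = 0.0214 by limma, past the threshold, with 14.2% of all genes lower).

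The mutants gave a second set of mice for this comparison, with no mouse in common with the controls but with the mutation added to age and line. P209L mice were lower than KO and R206W mice in Ctnna1 (log2 difference -0.83), Jup (-1.33), Ctnnd1 (-0.80) and Ctnnd2 (-0.69), and higher in Ctnnb1 (0.59), with adjusted p from 3.49e-04 to 0.00189 by limma. That makes 4 lower and 1 higher of 6 genes tested, against 32.1% lower and 13.9% higher of all genes. Cdh2 did not pass, at -0.29 (95% interval -0.63 to 0.06, adjusted p = 0.156). The groups did not overlap for any of the 5 genes that passed, against 40.2% of all genes without overlap. Jup, for example, had 6.49, 6.72 and 8.33 TPM in P209L mice and no less than 14.97 TPM in any 8-week mutant, and its share of Jup and Ctnnb1 was 1.38% against 5.50% (exact permutation p = 0.0238, the smallest that 3 against 6 allow, adjusted p = 0.333). Ctnna2 was higher by 0.40 on the log2 scale, as a description.

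The controls at 3 weeks were 2 mice, and their cell type markers differed from those at 8 weeks. Summed neuronal markers were 2676 and 2956 TPM in P209L controls and 2961 to 5291 TPM in 8-week controls, and in P209L mutants 2531 to 3077 TPM against 4156 to 5112 TPM in 8-week mutants. Oligodendrocyte markers (8 of 8 detected) were 4142 and 6191 TPM in P209L controls against 2654 to 3683 TPM in 8-week controls. P209L mutants, at 2507 to 3595 TPM, lay below both of their controls in this sum. Markers of leptomeningeal fibroblasts and of ependyma and choroid plexus overlapped between ages in both controls and mutants. Astrocyte, microglial, endothelial and oligodendrocyte precursor markers overlapped in the controls and not in the mutants. In P209L mutants against 8-week mutants, summed astrocyte markers were 825 to 1074 TPM against 1308 to 1638 TPM, microglial markers 196 to 227 against 258 to 357 TPM, endothelial markers 164.5 to 198.7 against 201 to 260 TPM and oligodendrocyte precursor markers 64.4 to 88.4 against 123 to 144 TPM. The part of these cells in the differences was not tested. Leaving out either P209L control, of which control 2 had the choroid plexus markers, leaves 1 mouse at 3 weeks, so sizes alone are given. Over all fits of the controls that left out a mouse, log2 differences were -0.76 to -0.50 for Ctnna1 and -1.30 to -0.94 for Jup. They were -1.06 to -0.84 for Ctnnd1, -0.89 to -0.75 for Ctnnd2, -0.67 to -0.44 for Cdh2 and 0.43 to 0.60 for Ctnnb1. Without KO control 1 all 6 passed, in a fit that called 50.3% of all genes, against 36.1% with all mice. Jup was then at -1.30 and Ctnnb1 at 0.44.

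The controls of the R206W and KO lines, both at 8 weeks, gave a comparison in which neither age nor mutation differs. Here 0 of the 6 partners passed (0 at an unadjusted p under 0.05) and 0% of all genes did, with 507 genes at an unadjusted p under 0.05. The median log2 difference over all genes was 0.13. Without KO control 1 this median was -0.0014, and 3 of the 16265 genes and 0 partners passed. With median-of-ratios size factors and all mice the median was -0.00, and that of the 3-week against 8-week mutants went from -0.16 to -0.01.

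Genes around the catenins were read from 9 lists of 88 genes, 74 of which passed the filter. In KO, R206W and P209L mice 0 of the 74 passed by limma, with 2 (Apc at -0.41 and Notum at 0.50), 0 and 7 at an unadjusted p under 0.05, and 0 passed where the KO effect was set against that of R206W. Their median log2 differences were 0.03, 0.06 and 0.03, against 0.06, 0.01 and 0.02 for all genes. With quality weights 13 of them passed in KO, where 13.3% of all genes did. In the 3-week against 8-week mutants 35 were lower and 8 higher, against 32.1% lower and 13.9% higher of all genes. In the 3-week against 8-week controls 26 were lower and 7 higher, against 24.8% lower and 11.3% higher of all genes, with a median of -0.31 against -0.12. The 33 calls became 15 without P209L control 1, 14 without P209L control 2 and 45 without KO control 1, while the share of all genes called went from 36.1% to 18.4%, 16.7% and 50.3%.

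Among 14 other classical cadherins tested, 7 were lower and 0 higher at 3 weeks, with a median of -0.50. Without KO control 1, 11 were lower, in a fit where 6089 of all 16265 genes were lower, against 4039 with all mice. Leaving out either P209L control leaves 1 mouse at 3 weeks, so counts of lower cadherins in those fits are not given. Cdh12 averaged 3.66 TPM (SD 0.870, n = 2) in the younger controls and 8.96 TPM (SD 0.886, n = 6) in the older ones, with a log2 difference of -1.11 (adjusted p = 4.35e-04). Cdh7 and Cdh19 were lower by similar amounts, at -0.76 and -0.80. The desmosomal list, with desmoplakin and the desmosomal cadherins that plakoglobin binds in epithelia, had 0 of 7 genes above the filter. Of 3 relatives of p120 tested, 1 was lower, namely Pkp4, a plakophilin, at 72.2 ± 1.27 TPM against 103 ± 7.99 TPM (log2 difference -0.50).

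Other lists hold the machinery that controls beta-catenin. In the destruction complex, which marks free beta-catenin for breakdown, 7 of 10 genes were lower and 0 higher at 3 weeks, with a median of -0.54. Without KO control 1, 9 were lower, in the fit where 6089 of all genes were lower, against 4039 with all mice. Gsk3b, the kinase that phosphorylates beta-catenin, had 25.0 ± 0.495 TPM against 61.7 ± 11.5 TPM (log2 difference -1.25, adjusted p = 2.47e-04). Btrc and Fbxw11, the F-box proteins that recognize phosphorylated beta-catenin, were lower by 0.79 and 0.65 on the log2 scale. Among 10 nuclear partners 2 were higher and 3 lower, with the beta-catenin inhibitors Cby1 and Ctnnbip1 at 0.65 and 0.35, and the coactivators Bcl9l, Pygo1 and Bcl9 at -0.76, -0.72 and -0.61. Lower nuclear partners numbered 5 in the fit without KO control 1. Between 3-week and 8-week mutants 2 were higher and 7 lower, against 13.9% higher and 32.1% lower of all genes. Of 7 Wnt-induced genes tested, 1 was higher and 2 were lower: Notum at 0.68, Ccnd1 at -0.75 and Znrf3 at -0.61. Between 3-week and 8-week mutants Ccnd1 (-0.96) and Znrf3 (-0.73) also passed, and Notum did not, at 0.08 (adjusted p = 0.707 by limma). With either P209L control left out Notum no longer passed, and without P209L control 1 none of the 3 passed.

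On the actin side the lists were mixed. Of 13 actin linkers 3 were lower and 0 higher, the largest difference being that of Nectin1, an adhesion receptor tied to actin through afadin, at 6.23 ± 0.707 TPM against 17.7 ± 5.17 TPM (log2 difference -1.31). The others were Tjp1 at -0.70 and Actn4 at -0.68. Without KO control 1, 5 linkers were lower, in the fit where 6089 of all genes were lower, against 4039 with all mice. Between 3-week and 8-week mutants 7 linkers were lower and 0 higher, against 32.1% lower and 13.9% higher of all genes. Of 10 Arp2/3 genes, 3 were higher and 2 lower, with Arpc1b at 43.5 ± 6.08 TPM against 22.7 ± 1.55 TPM (log2 difference 0.90), Arpc5 at 0.33 and Arpc3 at 0.30, and with Actr3 at -0.53 and Actr2 at -0.44. Of these genes 5 were higher with median-of-ratios size factors and 6 with quantile normalization. Of all 16265 genes, 3239 and 3662 were higher in those fits, against 1837 in the main fit. Higher Arp2/3 genes numbered 3 without KO control 1, in a fit where 2092 of all genes were higher. Between 3-week and 8-week mutants 4 Arp2/3 genes were higher and 1 lower. Actr2 did not pass there, at -0.10 (adjusted p = 0.520 by limma). Among 7 enzymes that cleave N-cadherin 1 was higher, the gamma-secretase subunit Psenen at 0.42, and 1 was lower, the protease Adam10 at -0.45, which did not pass with either P209L control left out. Ctnnbip1, Bcl9, Tjp1, Actn4, Arpc3, Actr2, Adam10, Apc and Notum in KO were named after their values were seen.

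**Figure D4:**
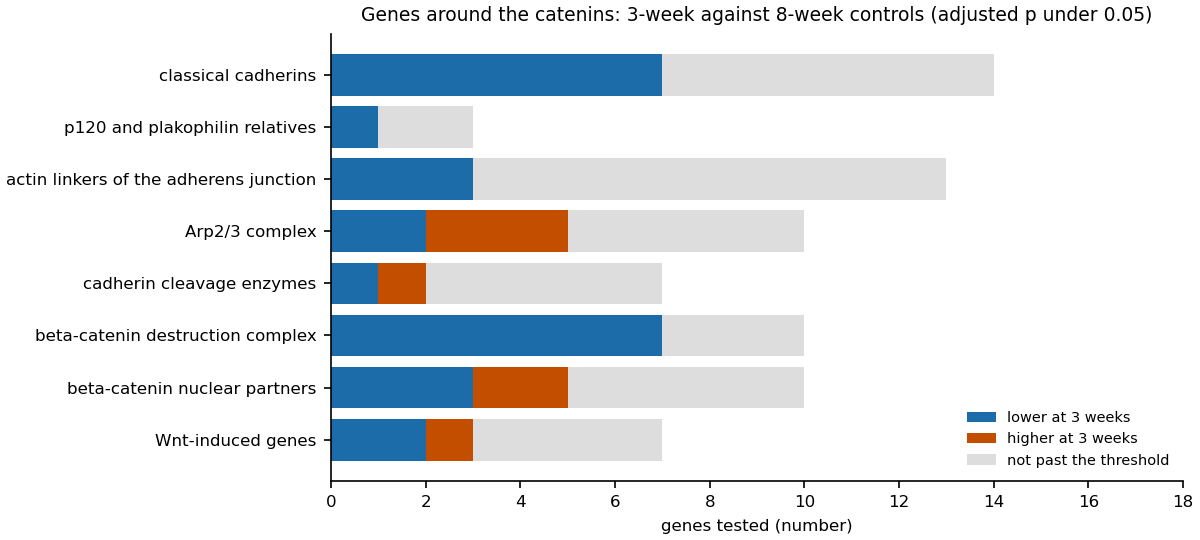
Number of genes tested (horizontal axis) in 8 lists of genes around the catenins, split into those lower, higher or not past an adjusted p of 0.05 in 3-week against 8-week controls by limma. The classical cadherins and the destruction complex have 7 lower genes each and 0 higher, and the Arp2/3 complex has 3 higher and 2 lower. Of all genes tested, 24.8% are lower and 11.3% higher, and the 3-week controls are 2 mice.

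The pattern of Ctnna2 across mice was set beside those of other genes. With log2(TPM + 1) centered on the mean of each line, the genes with the highest Pearson r with Ctnna2 over the 17 mice were Tab2 (0.97), Usf3 (0.96), Ash1l (0.95), Ppm1a (0.95) and Bcl2l2 (0.94), out of 16265. Ash1l is also on the list that the study drew from these mice. Ppm1a, for example, averaged 298 TPM in R206W mice against 212 TPM in their controls and 258 against 128 TPM in P209L, with 187 against 193 TPM in KO. Among the partners r was 0.68 for Ctnnd2, 0.67 for Cdh2, 0.49 for Ctnnb1, 0.48 for Ctnnd1, 0.23 for Jup and 0.09 for Ctnna1. Between partners it reached 0.90 for Ctnnd2 with Cdh2 and 0.86 for Jup with Ctnnd1. KO control 1 was the lowest KO control in each of these partners, and r was not computed without that mouse. All these r values are descriptions, and the mice share the scaling of their libraries. Centering on the line keeps the differences between mutants and controls by which Ctnna2 was chosen. A high r with Ctnna2 therefore repeats that choice in part.

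Other genes are annotated within or across these genes on the opposite strand, and were looked up after values were seen. The libraries were stranded, but how strand was used in counting is not given in the sources used here. Lrrtm1, which encodes a synaptic adhesion protein, lies inside Ctnna2 (chr6:77242689-77257791) with no shared exon, and had 28.7 ± 4.48 TPM in R206W mice against 29.2 ± 3.95 TPM (SD, n = 3 each) and 24.8 ± 4.03 TPM in P209L mice against 24.4 ± 0.0990 TPM. It did not follow Ctnna2, with log2 differences of -0.03 and 0.01. Lrrtm3 lies inside Ctnna3 and had 16.9 to 37.3 TPM where Ctnna3 had at most 1.01 TPM. Lrrtm2 shares annotated exon bases with Ctnna1, and Ulk4 (1.79 to 3.92 TPM) with Ctnnb1. Lrrtm2 was lower in 3-week controls, at -1.09 on the log2 scale, as was Ctnna1. In KO and P209L mice it had log2 differences of -0.37 and 0.35 where those of Ctnna1 were 0.19 and -0.14, none past the threshold. Reads of this pair are uncertain.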

How the data were processed

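Bulk cortex RNA of 17 mice was analyzed. The authors deposited 1 table of TPM by gene symbol, with a column for each mouse (0 columns were unmatched). Per the labels the libraries were TruSeq Stranded Total RNA; the submitters' processing notes name mm10, Trim Galore, STAR 2.7.1a, GATK 4.0.4.0 and RSEM, without settings. TPM keeps no sequencing depth and makes each gene a share of its sample, so abundant transcripts can shift all others.

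The table had 55573 entries; 120 that repeated a symbol were summed, leaving 55453. The 16265 genes that averaged 1 TPM or more were analyzed as log2(TPM + 1) with limma 3.58.1 in R 4.3.3 (a mean for each group over all 17 mice, lmFit, contrasts.fit, eBayes with trend=TRUE, two-sided), adjusted by Benjamini-Hochberg over all genes at a threshold of 0.05; fold changes of low genes are understated on this scale. The study's own test was not stated in the sources used here. Shares were compared by exact permutation tests over mice, 14 in all. P-values measure the spread between mice. The members and lists were chosen with earlier results of these data known. The genes named were the 8 members, Hnrnph2, list genes past the threshold in a mutant comparison, up to 3 genes of each list with the largest differences among those past the threshold and without overlap between ages, and the 5 genes most correlated with Ctnna2. Coordinates were from GENCODE M21 (GRCm38), which held 98.3% of the symbols, and promoter sequence from RefSeq (GRCm38.p6).

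Alternatives were pseudocounts of 0.5 and 0.1, no filter, a mean TPM of at least 5, median-of-ratios size factors, quantile normalization, only the groups compared, the replicate number as a block, sample weights (arrayWeights), each mouse left out, and for shares the log2 ratio.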

Additional observations from a re-analysis of the deposited data

How the results depend on the processing

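Of 115 recomputed counts of members past the threshold, 113 stayed within 1.5 times the reported count, as did 342 of 389 recomputed counts of genes in the lists. Many reported counts were 0, in comparisons where few genes of any kind passed, so their agreement says little. With only the groups compared, 4 members passed in the 3-week against 8-week controls in place of 6, without Ctnna1 and Cdh2. That fit called 4414 of 16198 genes, against 5876 of 16265 in the main fit. With sample weights 2 members passed in KO (Ctnnd1 and Ctnnd2) in place of 0, in a fit that called 13.3% of all genes. Leaving out a mouse gave 2 to 6 members in the 3-week against 8-week controls, the lowest without P209L control 1, and 5 in the mutants. The deviations of same-numbered mice had correlations of -0.113 to 0.331, over 0.1 in 2 of 8 pairs, so the numbers were not taken to pair the mice. With the replicate block 6 members passed in the controls and 5 in the mutants, as without it, and 0 elsewhere. The block fit called 4772 of 16265 genes in the controls and 7898 in the mutants, against 5876 and 7470 without it.

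Small differences changed sign. In KO, with median-of-ratios size factors, quantile normalization and sample weights in that order, Ctnnb1 was at -0.013, -0.012 and -0.15, Ctnnd2 at -0.060, -0.027 and -0.22, and Cdh2 at -0.076, -0.051 and -0.30 on the log2 scale. Jup was at -0.35 with the weights. Leaving out a mouse in KO gave -0.066 to 0.37 for Ctnna1, -0.083 to 0.17 for Ctnnb1, -0.27 to 0.37 for Jup, -0.31 to 0.12 for Ctnnd1, -0.15 to 0.13 for Ctnnd2 and -0.25 to 0.19 for Cdh2. In R206W it gave -0.068 to 0.0048 for Ctnnb1, -0.18 to 0.21 for Jup and -0.060 to 0.18 for Ctnnd1, and the weights gave -0.10 for Jup and -0.022 for Ctnnd1. Jup in P209L ran from -0.30 to 0.032. Between R206W and KO controls Ctnna2 was at -0.021 with the weights and -0.024 to 0.26 leaving out a mouse. Between ages it was at 0.049 and 0.050 with the size factors and quantile normalization. The cause of these shifts was not tested. The gap in the Jup share between ages in mutants was -4.33 to -3.66 percentage points, and fewer P209L mice raised the smallest exact permutation p. TPM holds no depth, and groups of 2 or 3 mice limit each comparison.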
